A study of Mus musculus with 5 samples.

Results

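The genes described here encode the secretory programme of goblet cells, the mucus-producing cells of the intestinal epithelium. The 10 genes (Atoh1, Gfi1, Spdef, Agr2, Spink4, Retnlb, Tff3, Fcgbp, Zg16 and Clca1) were taken with every probe set that the platform annotation assigns to them alone, which gave 14 probe sets of 22626 and 10 genes of 12393. They were measured on 5 Affymetrix arrays. Of these, 3 came from intestinal tumours of mice of the Apc1638N strain, called tumours 16, 18 and 2 here, and the other 2 from normal epithelial cells of wild-type intestine, called wild types 36 and 62. All samples are labelled as C57Bl6/J males of 8 months, kept under specific-pathogen-free conditions with free access to food. The numbers are only names, and the labels do not say whether each sample came from its own animal or from pooled animals, so a p-value here measures only how these samples vary, which may be technical. Apc1638N mice carry a mutant allele of Apc, which encodes a scaffold protein that restrains Wnt signalling. Laser capture microdissection, which cuts selected cells out of a section under the microscope, was used to collect the epithelium. The labels do not state the position along the intestine.

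Goblet cells arise from crypt progenitors that escape Notch signalling and switch on the transcription factor Atoh1, which commits a cell to the secretory lineages. Gfi1 acts downstream of Atoh1 and favours goblet and Paneth over hormone-producing cells, and Spdef drives the last steps of goblet maturation. The mature cell folds very large mucin polymers in its endoplasmic reticulum with the help of Agr2, stores them in granules and releases them with other mucus proteins such as Fcgbp, Clca1, Zg16 and the trefoil peptide Tff3.

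Goblet cell genes did not move in 1 direction in the tumours. By the brightest probe set of each gene, Spink4 rose, Fcgbp fell and 8 genes did not pass an adjusted p of 0.05 (limma, Benjamini-Hochberg adjustment over all 22626 probe sets). Over all genes 20.4% passed, 10.5% higher and 9.92% lower, and the members' 2 of 10 is near that share. The median change of the 10 genes was 0.03 on the log2 scale, against 0.00 over all genes. Their sizes were large, with a median absolute change of 1.41 against 0.14 over all genes. Their spread within groups was large too. The median standard deviation was 0.475 against 0.079 over all genes in the tumours, and 0.254 against 0.067 in the wild types. The genes were chosen with earlier results of these data known, so these sizes and the shares that follow describe them and test nothing. Of the 14 probe sets, 10 differed by 1 or more on the log2 scale, where 8% of all probe sets did. Of all 22626 probe sets 18.3% passed, 9.58% higher and 8.72% lower, and of the 14 member probe sets 1 passed higher and 1 lower. The 2 groups had no overlap in 11 of the 14, which was so for 47.9% of all probe sets. In 7 genes the brightest probe set separated the groups, 4 higher (Spink4, Retnlb, Agr2 and Spdef) and 3 lower (Fcgbp, Zg16 and Clca1), while Tff3, Atoh1 and Gfi1 overlapped. In bulk samples such as these, fewer goblet cells and less RNA per goblet cell cannot be told apart.

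**Figure D1:**
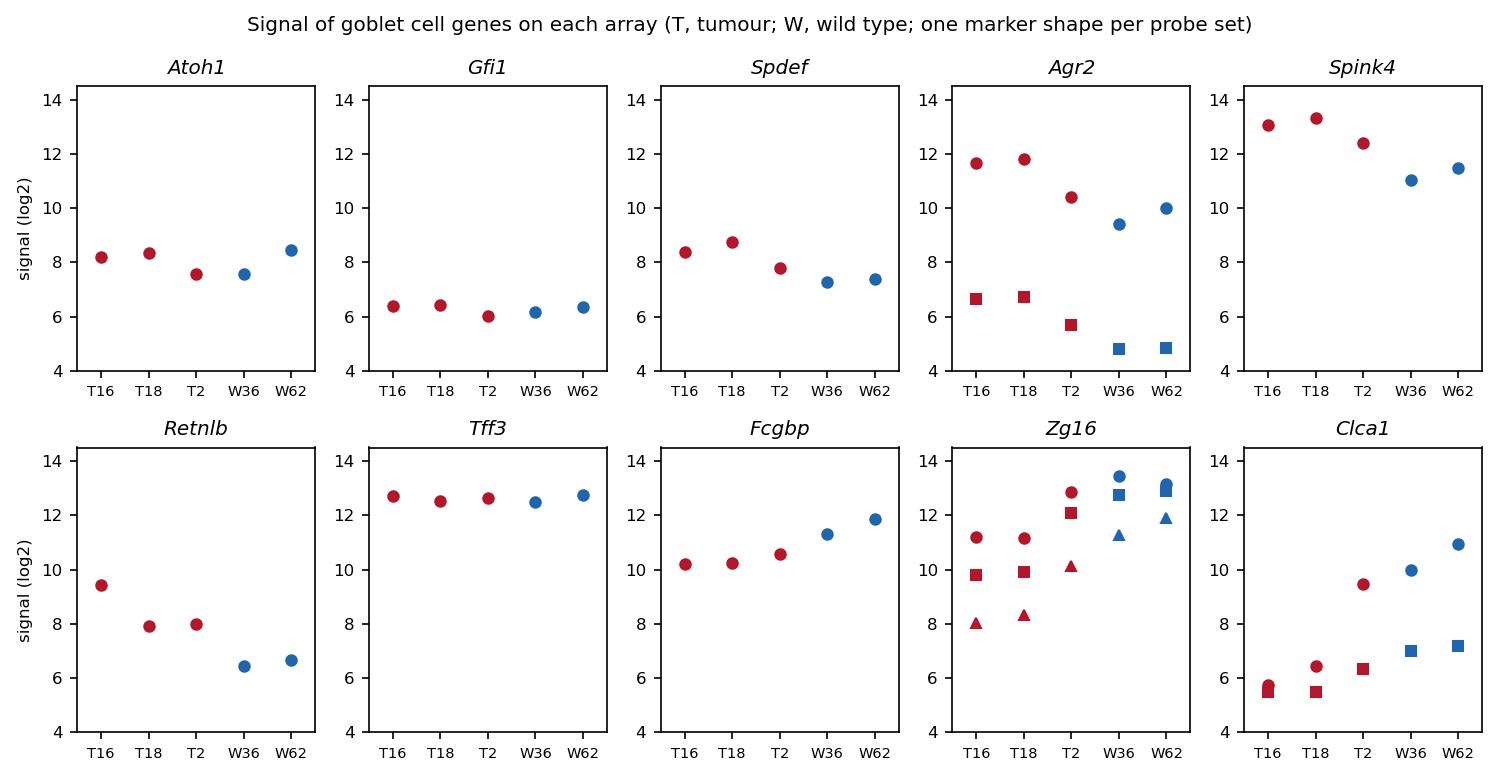
Signal of every probe set of the 10 genes (vertical axis, log2) on the 5 arrays (horizontal axis), with tumours in red, wild types in blue and a marker shape for each probe set of a gene. Spdef, Agr2, Spink4 and Retnlb lie higher in all 3 tumours than in both wild types, Fcgbp, Zg16 and Clca1 lie lower, and the values of Atoh1, Gfi1 and Tff3 overlap.

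The promoter sequences of 5 of the 10 genes stood in the RefSeq table of assembly GRCm38.p6. The 250 bases before a transcript start of Agr2, Spdef and Fcgbp are shown because these genes had table entries and non-overlapping groups, the former pair higher in all tumours and Fcgbp lower. Agr2 lies at chr12:35992675-35992924 on the plus strand, Spdef at chr17:27728952-27729201 on the minus strand and Fcgbp at chr7:28070986-28071235 on the plus strand. The windows of Agr2 and Fcgbp end just before the first base of the annotated gene, whereas that of Spdef lies inside its gene (chr17:27714446-27731003), before an internal transcript start. Capitals mark matches, on either strand, to TATAAA (the TATA box), CAGCTG (an E-box of the kind bound by basic helix-loop-helix factors), TGTTTAC (a forkhead motif) or CCGGAT (an ETS motif).
Agr2: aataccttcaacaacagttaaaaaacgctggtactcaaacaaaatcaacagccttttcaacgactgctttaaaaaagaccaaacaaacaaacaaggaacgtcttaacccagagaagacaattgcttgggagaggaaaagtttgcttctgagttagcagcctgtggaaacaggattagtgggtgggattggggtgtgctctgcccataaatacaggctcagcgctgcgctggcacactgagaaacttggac
Spdef: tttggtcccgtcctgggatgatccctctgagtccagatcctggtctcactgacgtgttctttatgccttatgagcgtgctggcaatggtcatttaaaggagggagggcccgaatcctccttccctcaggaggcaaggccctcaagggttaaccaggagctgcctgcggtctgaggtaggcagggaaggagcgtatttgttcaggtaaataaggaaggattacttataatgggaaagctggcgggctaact
Fcgbp: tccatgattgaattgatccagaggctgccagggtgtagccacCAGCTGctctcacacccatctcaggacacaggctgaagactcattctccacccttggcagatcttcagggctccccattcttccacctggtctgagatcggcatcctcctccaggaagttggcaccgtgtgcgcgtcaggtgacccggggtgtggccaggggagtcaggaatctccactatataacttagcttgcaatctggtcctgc
The E-box of Fcgbp, at bases -208 to -203 from the start, was the only match in these 3 windows. Among all 32851 promoters, windows of this length held TATAAA in 12.4%, CAGCTG in 13%, TGTTTAC in 3.17% and CCGGAT in 4.94%. A match is a description of the letters and not a bound site.

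Among the transcription factors, the lineage-specifying genes Atoh1 and Gfi1 overlapped between the groups, while Spdef, the maturation factor, was higher in every tumour. Atoh1 signals were 8.19, 8.36 and 7.58 in tumours 16, 18 and 2, and 7.55 and 8.44 in wild types 36 and 62. Values overlapped, with the lowest and the highest both in the wild types, and the difference was 0.04 (SE 0.38, 95% confidence interval -1.004 to 1.09, adjusted p = 0.956 in limma). For Gfi1, which encodes a zinc finger repressor, the signals were 6.38, 6.43 and 6.03 in the tumours and 6.18 and 6.36 in the wild types. The difference was 0.01 (SE 0.15, interval -0.40 to 0.42, adjusted p = 0.970 in limma), and tumour 2 lay just below the 25th percentile of its array. Spdef signals were 8.37, 8.77 and 7.81 in tumours 16, 18 and 2 and 7.29 and 7.38 in the wild types. All 3 tumours were above both wild types, and tumour 2 was the nearest to them. The difference of 0.98 (SE 0.31) missed the threshold (adjusted p = 0.107 in limma).

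Agr2, a member of the disulfide isomerase family needed to fold intestinal mucins, had the same pattern as Spdef in both of its probe sets. In the brighter one the signals were 11.68, 11.81 and 10.43 in tumours 16, 18 and 2 and 9.42 and 10.002 in wild types 36 and 62. In the dimmer one they were 6.66, 6.73 and 5.68 in the tumours and 4.80 and 4.86 in the wild types, and tumour 2 and both wild types lay below the 25th percentile of their arrays. Tumours 16 and 18 were close together and tumour 2 lay between them and the wild types in both. The differences were 1.59 (SE 0.52, adjusted p = 0.116 in limma) and 1.53 (SE 0.37, adjusted p = 0.0632), and neither passed.

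The small secreted peptides Spink4 and Retnlb had higher signals in every tumour than in both wild types, and of these Spink4 passed the test. Spink4 encodes a Kazal-type serine protease inhibitor made by goblet cells. Its signals were 13.05, 13.33 and 12.41 in tumours 16, 18 and 2 and 11.05 and 11.47 in wild types 36 and 62. The lowest tumour stood 0.94 above the higher wild type, and Spink4 rose 3.18-fold (log2 change 1.67, SE 0.33, adjusted p = 0.0393 in limma). Retnlb encodes resistin-like beta, a goblet cell protein with antibacterial activity. Its signals were 9.44, 7.92 and 7.98 in the tumours and 6.45 and 6.66 in the wild types. Here tumour 16 stood apart from the other tumours, and the gap between the groups, 1.26, was the widest of the 14 probe sets. The difference of 1.89 (SE 0.55) had an adjusted p of 0.0910 in limma. Without tumour 16 it was 1.40 and passed (adjusted p = 0.0393 in limma), but it did not pass without tumour 18 (0.154), tumour 2 (0.136), wild type 36 (0.295) or wild type 62 (0.264).

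Tff3, the trefoil peptide that is packed with mucins and aids epithelial repair, had all 3 tumours within the range of the wild types. Signals were 12.71, 12.52 and 12.65 in tumours 16, 18 and 2 and 12.49 and 12.74 in wild types 36 and 62. The 5 arrays lay close together, with a difference of 0.01 (SE 0.10, interval -0.28 to 0.29, adjusted p = 0.974 in limma).

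The other mucus proteins, Fcgbp, Zg16 and Clca1, had lower signals in every tumour than in both wild types, and of these Fcgbp passed the test. Fcgbp encodes a large protein that binds into the mucin network. Its signals were 10.21, 10.25 and 10.58 in tumours 16, 18 and 2 and 11.33 and 11.85 in wild types 36 and 62. The 3 tumours lay within 0.37 of each other, and Fcgbp fell 2.37-fold (log2 change -1.25, SE 0.21, adjusted p = 0.0292 in limma).

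Zg16 encodes a lectin-like protein that binds Gram-positive bacteria in mucus, and it is represented by 3 probe sets. In the brightest, the signals were 11.19, 11.17 and 12.85 in tumours 16, 18 and 2 and 13.45 and 13.16 in wild types 36 and 62. In the next they were 9.82, 9.90 and 12.10 in the tumours and 12.74 and 12.88 in the wild types. In the dimmest they were 8.04, 8.34 and 10.13 in the tumours and 11.29 and 11.89 in the wild types. In all 3 probe sets tumours 16 and 18 were low and close together, and tumour 2 was nearer to the wild types. The differences were -1.57 (SE 0.62), -2.21 (SE 0.82) and -2.75 (SE 0.74), with adjusted p-values of 0.171, 0.152 and 0.0780 in limma, and none passed. The first and second probe sets have names that mark shared targets, and the dimmest, which does not, had the largest difference.

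Clca1, which encodes a secreted metalloprotease that processes mucus, had the widest spread between tumours. In its brighter probe set, signals were 5.75, 6.45 and 9.47 in tumours 16, 18 and 2 and 9.99 and 10.93 in wild types 36 and 62. The value in tumour 16 lay below the 25th percentile of its array. In the other probe set they were 5.49, 5.47 and 6.34 in the tumours and 7.01 and 7.19 in the wild types, and tumours 16 and 18 both lay below that percentile. The log2 differences of Clca1 therefore rest partly on dim signals. Every tumour was below every wild type in both. The differences were -3.24 (SE 1.28, adjusted p = 0.174 in limma) and -1.33 (SE 0.32, adjusted p = 0.0615), and neither passed.

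**Figure D2:**
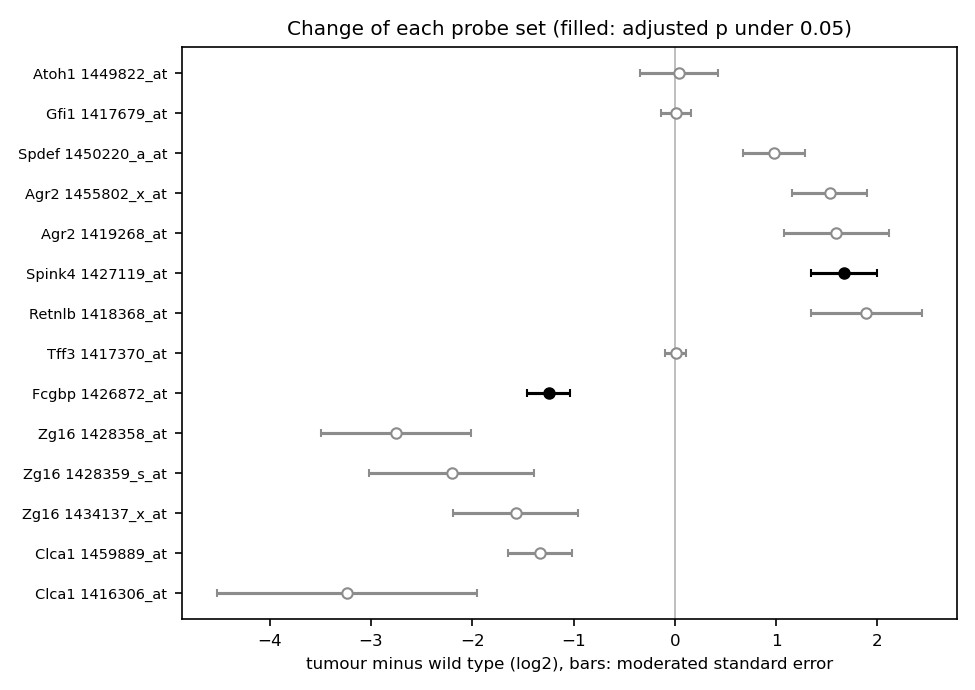
Difference between tumours and wild types (horizontal axis, log2) of each of the 14 probe sets, with bars of 1 moderated standard error on each side. Filled points mark Spink4 (1.67) and Fcgbp (-1.25), which passed an adjusted p of 0.05, while open points did not pass, among them the larger differences of Clca1 and Zg16.

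In all 11 probe sets whose groups did not overlap, tumour 2 lay between the wild-type mean and the mean of the other tumours. On a scale where the wild-type mean is 0% and the mean of tumours 16 and 18 is 100%, tumour 2 stood at 22.6% and 46.8% in the probe sets of Clca1 and at 21.4%, 24.2% and 42.8% in those of Zg16. It stood at 35.1% and 45.5% in those of Agr2 and at 38.6% in Spdef, and further along in Spink4 (59.8%), Retnlb (67.1%) and Fcgbp (74.5%). Among the 10 member probe sets with a change of 1 or more, tumour 2 was the tumour nearest to wild type in 9, the exception being Retnlb. Across the array this held for 1125 of 1811 such probe sets (62.1%), so tumour 2 was the nearest tumour for many other genes as well. Whether the members differ from the array in this was not tested.

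**Figure D3:**
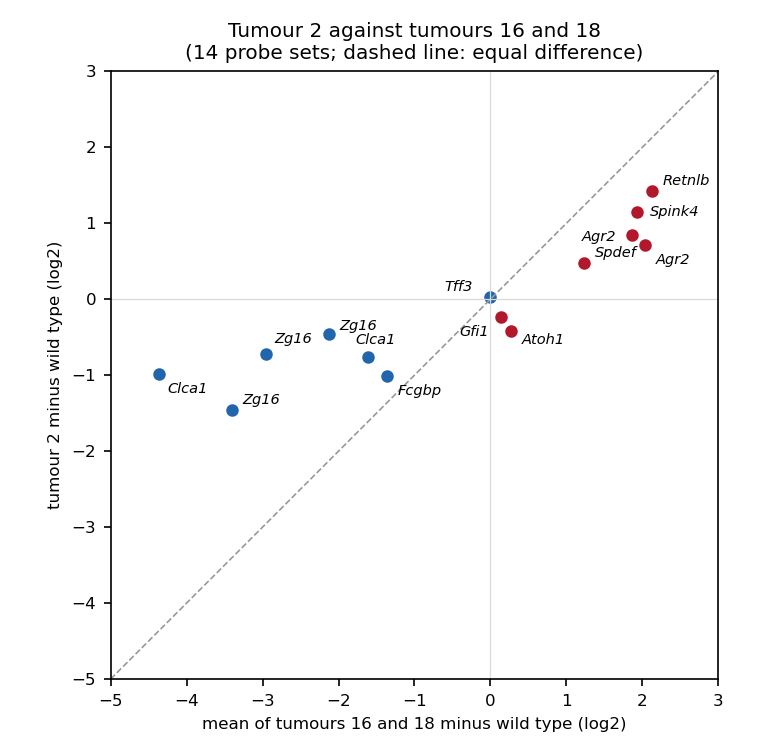
Difference from the wild-type mean in tumour 2 (vertical axis, log2) against that in the mean of tumours 16 and 18 (horizontal axis, log2) for the 14 probe sets, coloured by the sign on the horizontal axis. Points off the dashed line of equal difference toward 0 on the vertical axis changed less in tumour 2, as in the brighter Clca1 probe set (-0.99 against -4.36).

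Leaving out tumour 2 raised the number of member probe sets that passed from 2 to 9 of 14, 4 higher and 5 lower, while over all probe sets 15.1% passed (8.29% higher and 6.85% lower), against 18.3% with all arrays. All 3 probe sets of Zg16 then fell (log2 changes -2.13, -2.95 and -3.40, adjusted p = 0.0150, 0.0113 and 0.0203 in limma), as did both of Clca1 (-4.36 and -1.62, adjusted p = 0.0294 and 0.0137), with the dim tumour signals given above. Both probe sets of Agr2 rose (2.03 and 1.87, adjusted p = 0.0337 and 0.0113 in limma), as did Spdef (1.24, adjusted p = 0.0404) and Spink4 (1.93, adjusted p = 0.0291). Fcgbp, with a change of -1.36, was at an adjusted p of 0.0501 in that fit. Tumour 2 lay between the wild-type mean and the mean of the other tumours in the 11 probe sets without overlap. Leaving it out therefore had to enlarge their changes, and the added calls are no separate evidence. These values describe 2 tumours and do not replace the comparison of all 3.

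The calls of Spink4 and Fcgbp were mostly lost when 1 array was left out, and fewer probe sets passed over the whole array too. Without tumours 16, 18 and 2, in this order, 4.1%, 6.28% and 15.1% of all probe sets passed, against 18.3% with all arrays. Spink4 lost its call without tumour 16 (adjusted p = 0.145 in limma), tumour 18 (0.106), wild type 36 (0.179) or wild type 62 (0.137), with changes between 1.46 and 1.93 over the 5 fits. Fcgbp lost it without any 1 of the 5 arrays, with adjusted p-values in limma of 0.115, 0.110 and 0.0501 without tumours 16, 18 and 2 and 0.0680 and 0.114 without wild types 36 and 62, and changes between -1.51 and -0.98. Without wild type 62, 0 of 22626 probe sets passed in limma, although 6682 had an unadjusted p under 0.05, 2 of them members. Many probe sets of the deposited table hold values tied within a group, which lowers the estimated spread of those probe sets. No member probe set holds tied values, and how the ties act on the member calls was not tested. With tied probe sets left out, 32.8% of the remaining 15762 probe sets passed (17.3% higher and 15.5% lower), and 7 of the 14 member probe sets did. These were Spink4, Retnlb (adjusted p = 0.0374 in limma), Spdef (0.0482) and the dimmer probe set of Agr2 (0.0233), which rose, and Fcgbp, the dimmest probe set of Zg16 (0.0303) and the dimmer one of Clca1 (0.0228), which fell. In that setting Fcgbp kept its call when each array was left out in turn, and Spink4 did except without wild type 36 (adjusted p = 0.0705 in limma).

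Values of some other cell types differed between the groups beside these genes, and their part in the goblet cell results was not tested. Called genes made up 68.4% of the absorptive enterocyte, 50% of the Paneth cell and 36.4% of the immune cell list, against 20.4% of all genes. For the other lists the share was 28.6% (epithelial), 27.3% (tuft), 15% (enteroendocrine), 13.3% (stromal and muscle) and 11.1% (pancreatic acinar). All 14 epithelial genes listed (among them Epcam, Cdh1 and Krt8) were measured, and their mean signal was 10.56 to 10.88 in tumours and 10.58 to 10.68 in wild types. Krt18 and Krt19 rose and Vil1 and Ocln fell (called in 4, 0, 2 and 1 of the 5 fits that omit 1 array), and Vil1 and Krt20 stand in the enterocyte list too. For the 19 absorptive enterocyte genes the mean signal was 7.56 to 8.47 in tumours and 11.28 to 11.32 in wild types, and 13 fell and 0 rose. Among 10 Paneth cell genes, 5 rose and 0 fell, with a mean signal of 9.09 to 9.72 in tumours and 7.58 to 7.84 in wild types. Stromal and muscle genes, of which 2 of 15 rose and 0 fell, had a mean signal of 7.62 to 8.57 in tumours, lowest in tumour 2, and at most 7.31 in wild types. Of 22 immune cell genes 8 fell and 0 rose, with a mean signal of 7.22 to 7.55 in tumours and 8.18 to 8.20 in wild types. In the list for enteroendocrine cells 3 of 20 genes fell and 0 rose. Of tuft cell genes 2 of 11 were higher and 1 lower, and of pancreatic acinar genes 1 of 9 was higher (Cela1) and 0 lower. Calls over the whole array also dropped when 1 tumour was left out, to 4.1%, 6.28% and 15.1% of all probe sets without tumours 16, 18 and 2. With tumour 16, tumour 18 or tumour 2 left out, in this order, there were 6, 10 and 14 called enterocyte genes and 2, 4 and 3 Paneth cell genes. For immune cell genes the counts were 2, 5 and 7, and for stromal genes 0, 1 and 2. Omitting a wild type leaves 1 array in that group, so list counts for those fits are left out here. The smallest p an exact permutation of 5 arrays can give for such a mean is 0.1, so no p is given for these means. For the 10 goblet cell genes the mean signal was 9.70 to 9.78 in tumours and 9.52 to 9.90 in wild types. That mean joins genes that were higher and genes that were lower in tumours, so it does not show that the single genes were unchanged. RNA quality also moved with the groups, since the 3′ minus 5′ difference of beta-actin was 3.999 to 4.25 in tumours and 2.51 and 3.32 in wild types, and its part in the results was not tested.

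**Figure D4:**
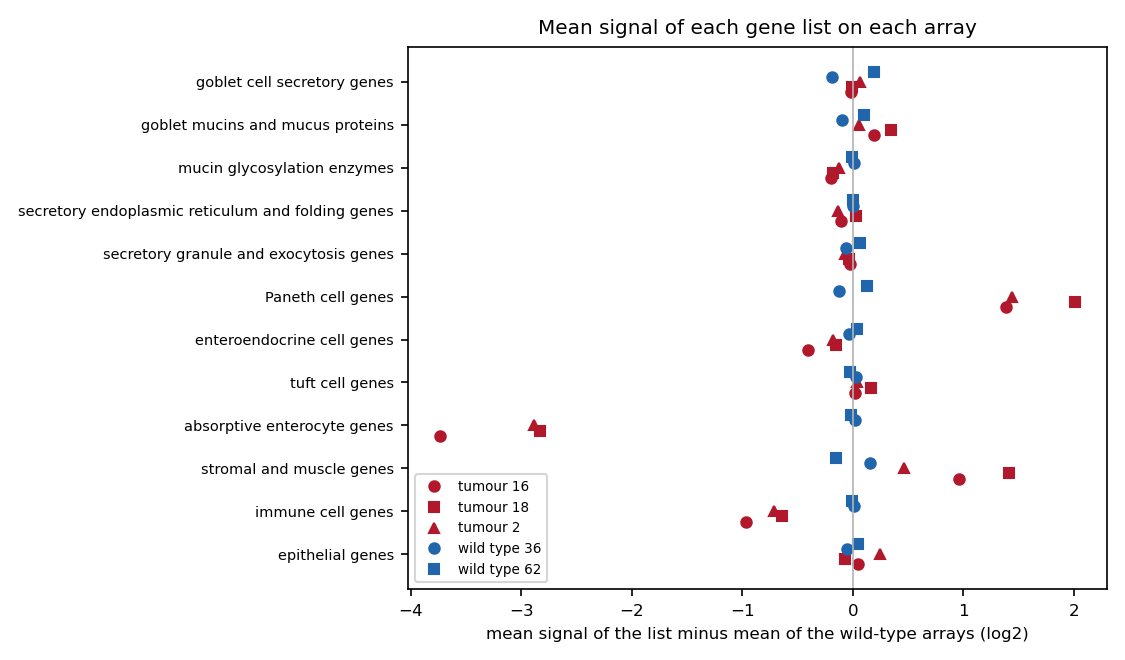
Mean signal of each gene list on each array, minus the mean of both wild-type arrays (horizontal axis, log2), with a marker for each array. The mean of the goblet cell secretory genes, which joins genes higher and genes lower in tumours, stays near 0 on all arrays. The Paneth cell list is higher and the absorptive enterocyte list lower in all 3 tumours.

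Most lists of the wider goblet cell pathway also held called genes in both directions. Of all genes 20.4% passed, but of 18 other mucin and mucus genes 0 rose and 0 fell in limma, with a median change of 0.12. The brightest were Dmbt1, a mucosal scavenger glycoprotein, at 13.01, 12.91 and 13.17 in tumours 16, 18 and 2 and 12.91 and 12.41 in the wild types, and the membrane mucin Muc13, at 11.37, 11.70 and 11.99 against 13.44 and 12.65. Muc13 differed by -1.36 (SE 0.32, adjusted p = 0.0579 in limma), and Dmbt1 by 0.37 (SE 0.18, adjusted p = 0.253). The count for this list moved with the processing. With quantile normalization 3 of the 18 genes rose and 1 fell, and with median centring 2 rose and 1 fell. Without tied probe sets 2 of 15 rose and 1 fell. Of all probe sets 21.5%, 21.6% and 32.8% passed in these settings, in this order. Muc2, the main gel-forming mucin, was not analysed here. Of 31 mucin glycosylation genes, 3 rose and 5 fell (25.8%, against 20.4% of all genes). St3gal4, a sialyltransferase, fell by 2.29 (SE 0.07), and C1galt1c1, the chaperone of the enzyme that builds core O-glycans, fell by 1.22 (SE 0.18), while Gne, the first enzyme of sialic acid synthesis, rose by 0.77 (SE 0.16). Ugdh, which makes UDP-glucuronate, and B4galnt1, a ganglioside synthase, fell by 1.93 (SE 0.23) and 1.52 (SE 0.25), and neither is specific to mucins.

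Over all genes 20.4% passed, 10.5% higher and 9.92% lower, and the shares of the lists below stand beside that. Of 43 genes for protein folding and export from the endoplasmic reticulum, 2 rose and 10 fell (27.9%), with a median change of -0.14. Sec24d, a coat protein of transport vesicles, fell by 1.94 (SE 0.23), Dnajb9, a chaperone cofactor, by 1.43 (SE 0.31) and P4hb, a disulfide isomerase, by 1.37 (SE 0.22), while Dnajc10, a disulfide reductase, rose by 1.02 (SE 0.13). Among 25 granule and exocytosis genes, 3 rose and 5 fell (32%). Scin, which severs actin, fell by 2.92 (SE 0.28) and Nlrp6, an inflammasome receptor linked to mucus release, by 1.61 (SE 0.23). The ion channel gene Kcnn4 rose by 2.39 (SE 0.13) and the ion cotransporter gene Slc12a2 by 0.85 (SE 0.13), and neither is specific to granules. Among 27 other lineage transcription factors, 3 rose and 4 fell (25.9%). Foxa1, a forkhead factor, rose by 2.31 (SE 0.23), the ETS factor Ehf by 1.78 (SE 0.21) and Sox9, which marks crypt and Paneth cells, by 1.55 (SE 0.11). Klf4, needed for goblet cell maturation in the colon, fell by 2.11 (SE 0.31), with 7.95, 8.10 and 8.49 in tumours 16, 18 and 2 and 9.88 and 10.70 in the wild types. The Notch pathway, which restrains Atoh1, had 3 of 34 genes higher and 3 lower (17.6%). Notch2 rose by 1.33 (SE 0.16) and Hes6 by 1.02 (SE 0.15), while the Notch inhibitor Numb fell by 1.90 (SE 0.24) and the ubiquitin ligase gene Itch by 0.92 (SE 0.17). Adjusted p-values of the genes said to have risen or fallen in these lists lay between 0.00466 and 0.0479 in limma. Over all probe sets, 4.1%, 6.28% and 15.1% passed without tumours 16, 18 and 2, so fewer calls in the lists are not particular to them. In those fits, in the same order, there were 2, 5 and 7 called glycosylation genes, 0, 1 and 6 folding and export genes and 1, 4 and 8 granule genes. The counts were 1, 5 and 7 for transcription factors and 0, 1 and 5 for Notch pathway genes. Over all 5 fits that omit 1 array, wild types included, Kcnn4 and St3gal4 kept their calls in 4, Sox9 in 3, Scin, Foxa1, Ugdh and Hes6 in 2, and C1galt1c1, B4galnt1, Sec24d, Dnajc10, Slc12a2, Ehf, Klf4, Notch2 and Numb in 1. Gne, Dnajb9, P4hb, Nlrp6 and Itch kept theirs in 0 of the 5.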

How the data were processed

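Expression was measured on 5 Affymetrix arrays of laser-captured epithelium, 3 tumours and 2 wild types, grouped by their titles. The deposited table covers 22690 probe sets. Its log2 values are as the authors computed and deposited them, and the scale is inferred from their range, 3.38 to 14.30. Per the submitters' processing notes, processing involved the affy package of R; the background correction, normalization and summary method are not given in the sources used here. RNA was column-purified with DNase digestion and biotin-labelled by an Affymetrix small-sample protocol, per the labels' protocols. The number of arrays limits the precision, and no presence calls were used.

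After 64 control probe sets were set aside, 22626 entered a linear model in limma 3.58.1 under R 4.3.3 (lmFit, then eBayes, with group as the only term, 3 residual and 1.19 prior degrees of freedom), two-sided, with Benjamini-Hochberg adjustment over all of them and a threshold of 0.05. Changes are tumour minus wild type, with moderated standard errors (SE), and folds are 2 to the power of their size. Genes were named from GEO's platform annotation, and all 10 members matched RefSeq by Entrez identifier. In lists, the probe set with the highest mean over all arrays stands for its gene. From each wider list were named up to 4 called genes of largest change, with the largest against the majority, or the 2 brightest where none was called. The members and lists were chosen with earlier results of these data known. The steps were tested on simulated data with independent normal errors. Those data held no tied values, unlike the deposited table, so that test does not cover the effect of ties. Alternatives were other normalizations, filters, variance models, summaries per gene, a 2-fold minimum, and leaving out tied or shared-target probe sets or single arrays.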

Additional observations from a re-analysis of the deposited data

How the results depend on the processing

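All 11 member probe sets whose groups did not overlap kept their direction in each alternative that tested them. Spink4 and Fcgbp kept their calls in every alternative that kept all arrays. Counts of member probe sets called were 2 higher and 2 lower with quantile normalization, with median centring and with array weights, and 4 higher and 3 lower without tied probe sets, against 1 and 1. Over all probe sets these settings called 21.5%, 21.6%, 18.5% and 32.8%, against 18.3%. Leaving out single arrays gave 0 to 4 higher and 0 to 5 lower members, and 0 to 3424 probe sets called in all, against 4139. Omitting both an array and the tied probe sets, which was added once the data had been seen, gave 0 to 5 higher and 1 to 6 lower members and 2830 to 5266 in all. Over all probe sets, 1493 were called at a 2-fold minimum and 2224 without shared targets, and 2695 genes were called by their brightest probe set. Directions near 0 reversed for Tff3 (-0.085 with quantile normalization, -0.026 with median centring), Gfi1 (-1.66e-05 and -0.021) and, without single arrays, for Tff3 (-0.12 to 0.13; -0.035 without tumour 16 and -0.0038 without tumour 2), Gfi1 (-0.073 to 0.14; -0.036 without tumour 16 and -0.064 without tumour 18) and Atoh1 (-0.40 to 0.49; -0.031 without tumour 16 and -0.12 without tumour 18), whether or not tied probe sets were kept. The cause of these shifts was not tested, except that leaving out arrays leaves fewer samples. No paired analysis was made, because the tumours and wild types came from mice of different genotype and their names give no pairing.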

Other observations

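The 3 genes below were picked from the wider lists after their values were seen, because every tumour lay above both wild types and tumour 2 was the tumour nearest to them, as in Spdef and Agr2. They do not stand for their lists, since 13 of 27 lineage transcription factors and 19 of 43 folding and export genes had a positive change and 14 and 24 a negative one. Neither trait is rare on the array. The groups did not overlap, in either direction, in 47.9% of all probe sets. Tumour 2 was the nearest tumour in 62.1% of probe sets with a change of 1 or more. How many genes have both traits was not counted. Ern2, which encodes the stress sensor of mucus-producing epithelia, had signals of 9.06, 9.50 and 8.13 in tumours 16, 18 and 2 and 6.96 and 7.07 in wild types 36 and 62. The difference was 1.88 (SE 0.44, adjusted p = 0.0590 in limma). Creb3l1, a membrane-bound transcription factor of secretory cells, had 8.98, 9.04 and 8.14 against 7.43 and 7.42, a difference of 1.30 (SE 0.32, adjusted p = 0.0638 in limma). Foxa3, a forkhead factor, had 8.00, 8.27 and 7.56 against 6.55 and 7.04, a difference of 1.15 (SE 0.28, adjusted p = 0.0617 in limma). None of the 3 passed the threshold.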
